A study of Mus musculus with 3 samples.

Results

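To examine where Runx3 associated with the genes of its own family, the ChIP-seq windows at Runx1, Runx2 and Runx3 were drawn from the 2 deposited lists of ranked peaks. A window was a member when 1 of these 3 genes was deposited for it as a nearest or neighbouring gene. The main list held 7 such windows among 1000 and the list whose name also carries IgG, called the IgG-named list here, held 8 among 1000. Because 6 windows were present in both lists, there were 9 distinct member windows among 1088.

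ChIP-seq recovers the DNA that lies with a protein in chromatin. The 3 groups, of 1 library each, came from chondrocytes of the superficial zone (SFZ), the articular cartilage layer next to the joint surface, of 5-day-old wild-type mice of strain C57BL/6. The cells of all 3 groups had received, by lipofection, a vector for 3xFLAG-tagged Runx3. RUNX3-FLAG was precipitated with the FLAG antibody clone M2, IgG with anti-mouse IgG, and input was not precipitated. The tagged protein came from this vector and not from the native locus, so association of native Runx3 was not measured. Peak positions carry no marker levels, so the label SFZ could not be checked against marker genes. With 1 library per group there was no replicate error, the depth of the libraries was unknown because no read counts were used here, and no test was made. Each list ended at rank 1000, and the study called more peaks than these. A gene or promoter without a window below is one without a window among these ranks, and peaks of lower rank were not analysed here. Intervals below are 95% Wilson intervals over windows and cover counting error only. The RUNX3-FLAG library gave both lists, and a window in both is not a replicated window.

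Runx proteins are transcription factors that bind DNA through the Runt domain, as partners of the non-binding subunit Cbfb. Runx1 is known for blood stem cell formation, Runx2 for osteoblast differentiation and the maturation of hypertrophic chondrocytes, and Runx3 for sensory neurons, T cells and chondrocytes. Each of the 3 genes is transcribed from a distal promoter, P1, and a proximal promoter, P2, and Runx binding sites at Runx promoters are a known basis of auto-regulation and cross-regulation in this family. In the gene annotation of mm9, P1 and P2 were 129 kb apart in Runx1, 78 kb in Runx2 and 31.8 kb in Runx3.

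The sequences of the 6 windows that held the motif of the family, TGYGGY (Y, either pyrimidine), are shown because they carry the motif matches described below. Capitals mark each match, on either strand. The first pair lay in Runx1, the next beyond the end of Runx2, and the last 3 in or upstream of Runx3.
Runx1, main rank 115, chr16:92654259-92654359, + strand: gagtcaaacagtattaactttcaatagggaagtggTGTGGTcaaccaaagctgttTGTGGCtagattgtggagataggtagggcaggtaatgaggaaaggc
Runx1, main rank 324, chr16:92778345-92778445, + strand: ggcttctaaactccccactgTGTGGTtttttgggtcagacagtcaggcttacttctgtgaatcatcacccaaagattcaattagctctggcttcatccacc
Runx2, main rank 749, chr17:44393700-44393800, + strand: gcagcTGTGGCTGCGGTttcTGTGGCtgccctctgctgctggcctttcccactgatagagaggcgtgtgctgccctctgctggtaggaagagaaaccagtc
Runx3, IgG-named rank 22, chr4:134711283-134711383, + strand: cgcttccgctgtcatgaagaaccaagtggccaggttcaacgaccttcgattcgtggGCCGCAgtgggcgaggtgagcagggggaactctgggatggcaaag
Runx3, main rank 377, chr4:134731343-134731443, + strand: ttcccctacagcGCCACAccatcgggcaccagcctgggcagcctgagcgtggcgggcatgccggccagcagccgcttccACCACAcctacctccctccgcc
Runx3, main rank 422, chr4:134502001-134502101, + strand: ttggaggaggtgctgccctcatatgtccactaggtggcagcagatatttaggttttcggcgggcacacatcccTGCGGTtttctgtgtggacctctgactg

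Runx1 had the best-ranked Runx window of the main list and the window nearest to any Runx promoter. Its windows held ranks 115, 324 and 399 in the main list and ranks 113 and 395 in the IgG-named list. All 3 lay inside the gene, on chromosome 16, and Runx1 was deposited as the nearest gene of each. The gene spanned 225 kb on the − strand, and the deposited table described it with 4 RefSeq transcripts from 2 start sites.

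The window of main rank 399 was the promoter window of the family. It lay at chr16:92697025-92697125, centred 498 bp downstream of the P2 start site and 129 kb downstream of P1. For the transcripts from P2 it was in the 5′ untranslated part of exon 1, and for the transcripts from P1 it was in intron 2. Its partner in the IgG-named list, rank 395, was shifted by 1 bp and shared 100 of the 101 bp. No match to the Runx motif was present in it. A match to the AP-1 motif, TGASTCA with S for C or G, stood at its edge, 50 to 44 bp to the left of the centre, where left is the side of lower coordinates. When the window was widened by 50 bp on each side 1 Runx match came into it, and with 100 bp on each side there were 3. A wider window has more room for a match, and the share over all windows of the list widened alike was not computed.

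The window of main rank 115 lay in the gene body. It was at chr16:92654259-92654359, 43.3 kb downstream of P2 and 172 kb downstream of P1, in intron 3 of the P2 transcripts and intron 5 of the P1 transcripts. The IgG-named list held the identical window at rank 113. It held 2 Runx matches, TGTGGT starting 15 bp to the left of the centre and TGTGGC starting 5 bp to the right. The closer one was centred 7.5 bp from the window centre, against a median of 15.5 bp over the 661 windows of the main list with a match.

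The window of main rank 324 lay between the promoters and was the member that the IgG-named list lacked. It was at chr16:92778345-92778445, 47.9 kb downstream of P1 and 80.8 kb upstream of P2, in intron 2 of the P1 transcripts. It held 1 match, TGTGGT, and of the 2 flanking windows of the same length taken 500 bp away, the left one also held 1 match. The deposited location depended on the transcript, being intron for the 2 transcripts from P1 and upstream of the start site for the P2 transcript listed.

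**Figure D1:**
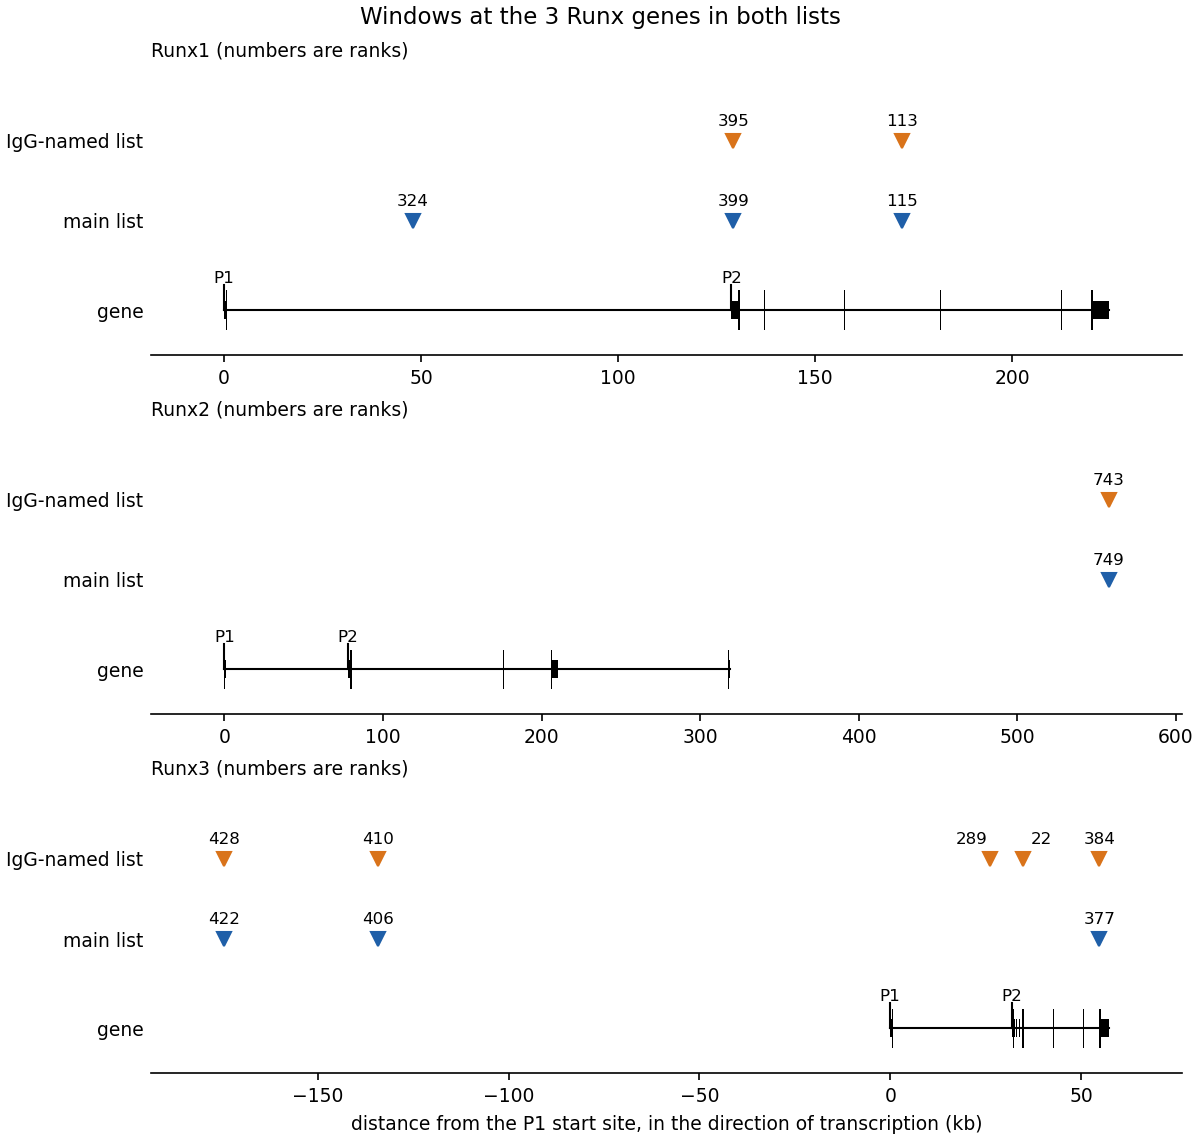
Windows deposited for Runx1, Runx2 and Runx3 by distance from the P1 start site in kb, in the direction of transcription. Black bars are exons (tall, coding; short, non-coding), P1 and P2 are the annotated promoters, triangles are windows and numbers are ranks. Runx1 windows lay within the gene, the Runx2 window 558 kb from P1, and Runx3 windows on both sides of P1.

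Runx2, the osteoblast regulator, had no window of the 1000 in either list within its 319 kb. Its 1 window was deposited because the table lists neighbouring genes at long range. The window was at chr17:44393700-44393800, at main rank 749 and, identical, at IgG-named rank 743. It lay 558 kb downstream of P1, 480 kb downstream of P2 and 351 kb beyond the deposited end of the transcript. It stood in an intron of Clic5, a chloride intracellular channel family gene and the deposited nearest gene, 68.2 kb from the Clic5 start site. Enpp4, an ectonucleotide pyrophosphatase family gene, was its other neighbour, at 151 kb. Thus the only Runx2 entry was a window inside another gene. The next window of the main list within 1 Mb of Runx2 was rank 217, 938 kb upstream of P1, and its deposited nearest gene was Mrpl14, which encodes a mitochondrial ribosomal protein. Per kb of gene, Runx2 had the fewest matches to the Runx motif, with 1.58 (503 in the gene), against 2.05 in Runx1 (461) and 2.44 in Runx3 (140). Whether this bears on the absence of windows in Runx2 was not tested. Only 7.98% of protein-coding gene names were deposited for any window of the main list, so a gene without a window inside it was the usual case.

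Runx3, whose own protein was precipitated, was the gene that differed most between the lists, with 3 windows in the main list and 5 in the IgG-named list. All lay on chromosome 4. The gene is on the + strand and spanned 57.3 kb, and 1 window of the main list and 3 of the IgG-named list were inside it. No window of either list lay within 1 kb of P1 or P2. The nearest to a promoter was at 2.92 kb and the next at 5.57 kb, both in the IgG-named list alone.

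The IgG-named window of rank 22 was the best-ranked Runx window in either list. It was at chr4:134711283-134711383, 2.92 kb downstream of P2 and 34.8 kb downstream of P1, at the end of exon 3 of the 6 exons of the deposited transcript. Of its 101 bases, 71 were coding and 30 followed the end of the coding exon, which lay 20 bp to the right of the window centre. It held 1 match, TGCGGC, and none to the narrower form TGYGGT. The main list had no window overlapping it, and of the 88 windows of the IgG-named list without a partner it had the best rank. Among the first 100 ranks of that list 6% had no partner.

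The IgG-named window of rank 289 was at chr4:134702790-134702890, in intron 1, 26.3 kb downstream of P1 and 5.57 kb upstream of P2. It overlapped no annotated exon and held no Runx match. Widening it by 50 bp on each side brought in 1 match, and by 100 bp brought in 3, again without a share over the list beside it.

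The window of main rank 377 lay wholly in coding sequence. It was at chr4:134731343-134731443, in the last exon, 54.8 kb downstream of P1 and 23 kb downstream of P2, and the identical window had IgG-named rank 384. It held 2 matches, which started 38 bp to the left and 29 bp to the right of the centre. At 71.3% it had the highest GC content of the 9 windows, against a median of 54.5% over the main list.

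Both other Runx3 windows were upstream of the gene and had Syf2, which encodes a splicing factor, as the deposited nearest gene. Main rank 406 (IgG-named rank 410) was at chr4:134542267-134542367, 134 kb upstream of P1 and 55.4 kb from the start site of Syf2, and held no Runx match. Widened by 50 bp on each side it held 1 match, and by 100 bp it held 3. Main rank 422 (IgG-named rank 428) was at chr4:134502001-134502101, 175 kb upstream of P1 and 15.2 kb from the start site of Syf2, and held TGCGGT. The pair stood 40.3 kb apart and was identical between the lists. Thus 2 of the 3 Runx3 windows of the main list were nearer to another gene than to Runx3.

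In all, 6 of the 7 windows of the main list had a partner, against 91.2% over the list, and 5 of 7 were identical, against 70.4%. Of the 8 members of the IgG-named list 6 had a partner, and 88 of the 1000 windows of that list had none. Among the 6 shared windows the rank in the IgG-named list minus that in the main list was −2 and −4 for Runx1, −6 for Runx2, and 7, 4 and 6 for Runx3. Over the 912 shared windows this difference had a median of 1 and a 5th to 95th percentile range of −23 to 33, so the shared members were placed alike in both lists. The 3 unshared members held IgG-named ranks 22 and 289 and main rank 324. Windows without a partner were also found near the top of the lists, with 4% of the first 100 ranks in the main list and 6% in the IgG-named list.

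**Figure D2:**
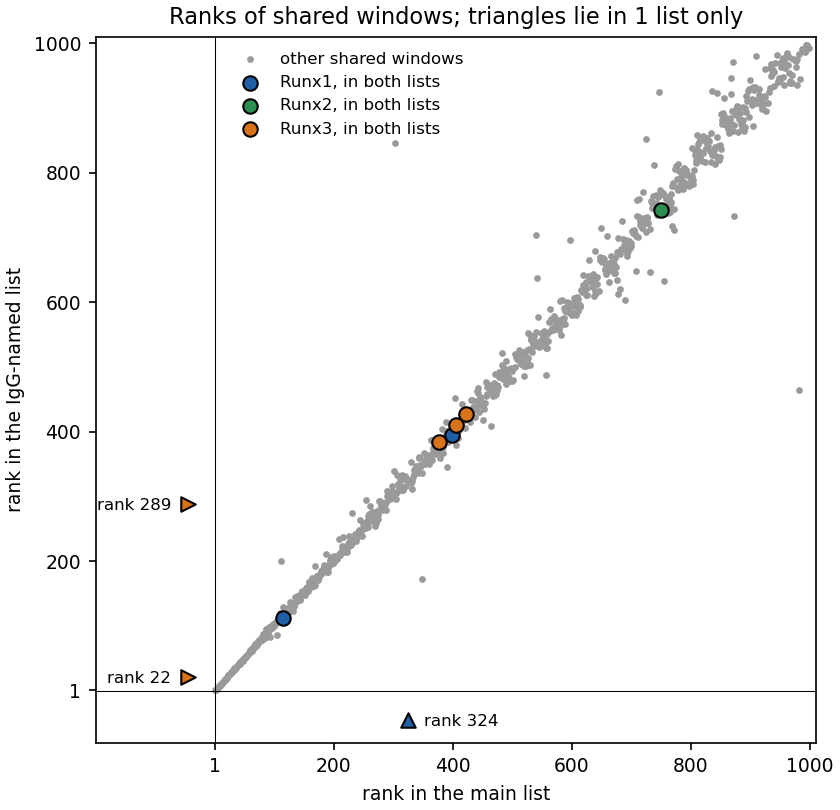
Rank in the IgG-named list against rank in the main list for 912 shared windows (grey) and the 6 shared Runx windows (large circles), with triangles outside the axes for windows of 1 list only. The shared Runx windows followed the other shared windows, whereas ranks 22 and 289 of the IgG-named list and rank 324 of the main list had no partner.

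By membership, Runx1 had 3 windows in the main list and 2 in the IgG-named list, and Runx3 had 3 and 5. Which Runx gene was the nearest gene of 3 windows depended on the list, through the 3 windows without a partner. In the main list Runx1 was nearest to 3 windows and Runx3 to 1, and in the IgG-named list Runx1 was nearest to 2 and Runx3 to 3. Of all deposited nearest genes, 1.67% in the main list and 1.79% in the IgG-named list had 3 or more windows. The member windows of the main list at Runx1 were spaced by 42.8 and 81.3 kb, and those at Runx3 by 40.3 and 189 kb. Each of these 6 windows therefore had 2 or more others within 250 kb, as did 17.4% of the main list, but choosing windows by a common gene favours such spacing. In the IgG-named list the Runx3 windows of ranks 289 and 22 were 8.49 kb apart, with the P2 promoter between them, and ranks 22 and 384 were 20.1 kb apart.

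The Runx motif was then compared with the lists as a whole. It was present in 5 of the 7 members of the main list (71.4%, 35.9 to 91.8), against 66.1% of that list. In the IgG-named list it was present in 5 of 8 (62.5%, 30.6 to 86.3), against 66.6%. Both shares were near those of the lists. In flanking windows of equal length, 500 bp away on either side, the share was 16.1%. In the main list 3 members (ranks 115, 377 and 749) held 2 or more matches, as did 19.6% of the list. Each of the 5 members of the main list with a match held the narrower form TGYGGT, which 52.9% of the list held. The 10 matches in the 9 windows comprised 4 of TGTGGC, 3 of TGTGGT, 2 of TGCGGT and 1 of TGCGGC. The 3 matches of the Runx2 window stood side by side within 21 bp, to the left of its centre, and the first and second were adjacent.

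**Figure D3:**
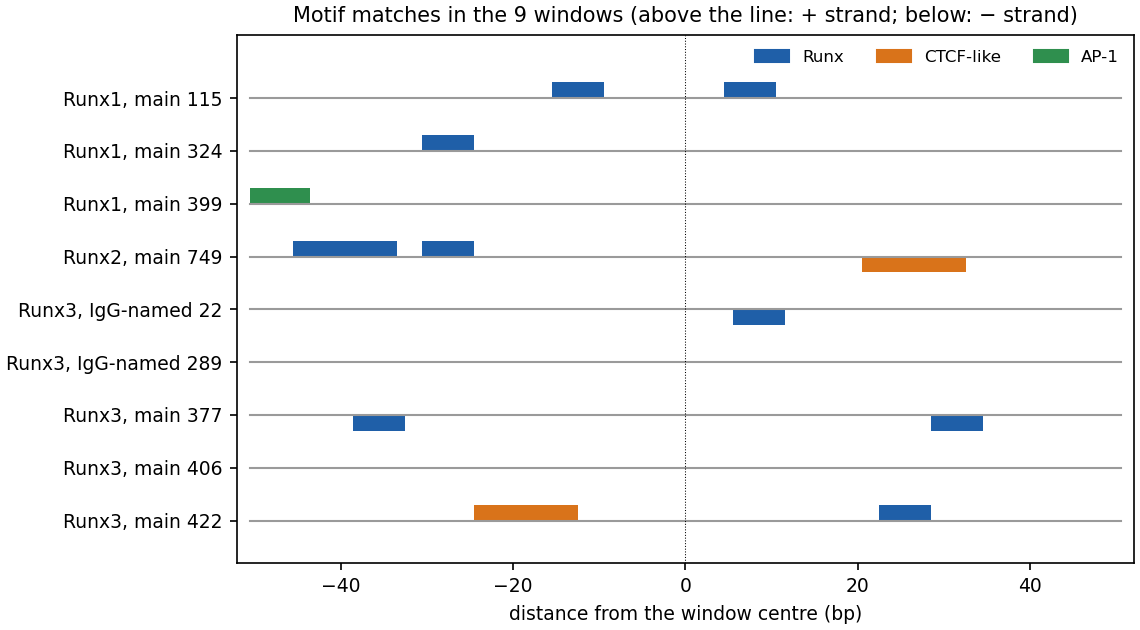
Positions of motif matches in the 9 member windows, in bp from the window centre (dotted line), above each line on the + strand and below it on the − strand. Runx matches (blue) lay within 15 bp of the centre in 2 windows, ranks 115 and 22, and ranks 289, 399 and 406 had none.

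A pair of windows far from any Runx promoter also carried a core like the motif of CTCF, the insulator protein. This core of 12 letters was chosen after the sequences had been seen. It was present in the Runx2 window of rank 749 and the upstream Runx3 window of rank 422, against 2.5% of the main list and 0.05% of the flanking windows. Both are given with 4 bases on each side to show the core in capitals.
Runx2, main rank 749, chr17:44393767-44393786, − strand: cctaCCAGCAGAGGGCagca
Runx3, main rank 422, chr4:134502023-134502042, + strand: atgtCCACTAGGTGGCagca

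Both windows also held a Runx match, on the other side of the window centre from the core. Of the 25 windows of the main list with such a core, 21 held a Runx match (84%, 65.3 to 93.6), against 66.1% of that list. These 25 included both member windows, seen before the core was chosen, and the interval covered the share of the list. Of the other motifs sought on both strands (AP-1, ETS as CCGGAA, TEAD as GGAATG and the GC box as GGGCGG), the AP-1 match of rank 399 was the only one in the 9 windows. In the main list AP-1 was present in 9.1% of windows, ETS in 7.7%, TEAD in 11.6% and the GC box in 13.8%.

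Coding sequence was examined because the vector that the cells carried holds Runx3 coding sequence. One of the 7 members of the main list (rank 377) and 2 of the 8 of the IgG-named list (ranks 22 and 384) overlapped a coding exon, all in Runx3. By the deposited location, which is another measure than overlapping bases, 2% of the main list and 2.2% of the IgG-named list were in a coding exon over all genes. Ranks 22 and 377 also had exon as their deposited location for Runx3. No window of either list lay inside Runx2, so none could be in its coding exons, and the 3 windows inside Runx1 overlapped no coding exon. Ranks 377 and 384 are the same window, so the family had 2 distinct coding windows, both in the gene carried by the vector. The share of reads from the vector in these windows was not tested. The window of rank 377 had all 101 bases in the coding part of the last exon, which was 530 bp long, whereas the window of rank 22 ran 30 bases past the coding exon of 157 bp.

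**Figure D4:**
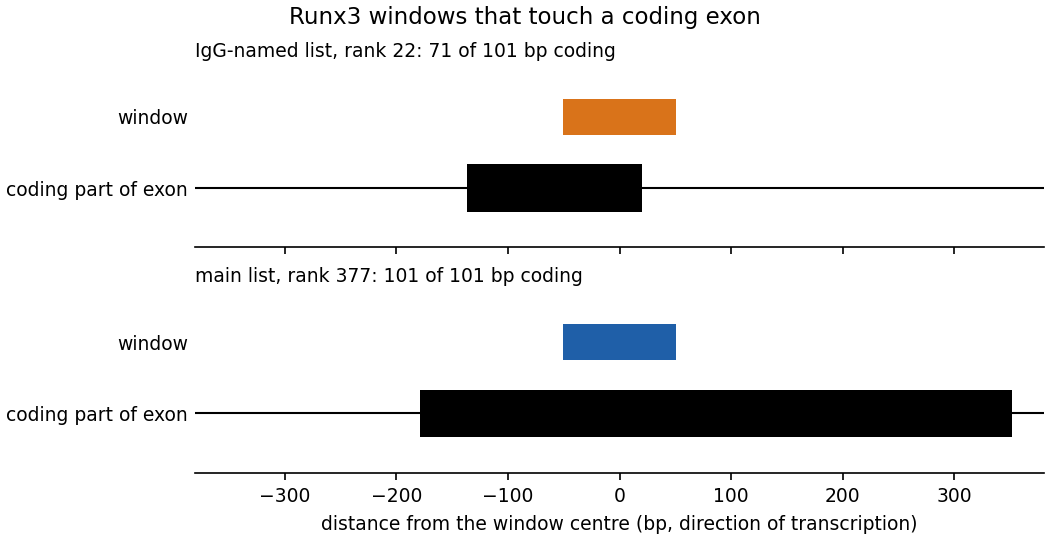
Position of the 2 Runx3 windows (coloured) that touch a coding exon (black), in bp from the window centre in the direction of transcription. The window of IgG-named rank 22 crosses the end of its exon with 71 coding bases, and the window of main rank 377 lies inside its exon.

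The coding exon at rank 22 has the same length in all 3 genes, so its sequence was compared between them. The exon of 157 bp was 78.3% identical in Runx1 and 83.4% in Runx2. Within the 71 coding bases of the window, 53 were identical in Runx1 and 59 in Runx2. The longest identical run over the exon was 12 bases with Runx1 and 26 with Runx2. In none of the 9 member windows did any 31-base word occur more than once in the genome, whereas 48 windows of the main list (4.8%) and 43 of the IgG-named list (4.3%) held such words.

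The genes beside the Runx loci were partly those of another family. The Clic genes are known neighbours of the Runx genes, and Clic6 was deposited beside Runx1, Clic5 beside Runx2 and Clic4 beside Runx3. In the main list 1 further window, rank 982 (IgG-named rank 984), was 42 bp upstream of the Clic4 start site and 152 kb downstream of P1 of Runx3, with 1 Runx match. Its deposited nearest gene was Srrm1, a splicing co-activator gene, and it was no member. The remaining neighbour of the Runx1 windows was Setd4, a methyltransferase family gene, at 826 to 950 kb.

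Genes that act with Runx proteins were drawn from a list of 37 partners, regulators and skeletal factors. In each list 9 of the 37 (24.3%) were deposited for a window, against 7.98% of the 22238 protein-coding gene names of GENCODE. The list was chosen with earlier results of these data known, and 36 of its 37 genes were in the annotation. The parts of that choice, of gene length and of spacing in the difference of the shares were not tested. With the start site required to be within 50 kb of a window, 5 of 37 were left, against 4.25% of all names. Cbfb, the partner subunit, had no window among the 1000 of either list. The 9 genes accounted for 16 pairs of a gene and a window in the main list, and 14 of these windows held the Runx motif, which 66.1% of that list held.

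Of the listed Tle co-repressors of the Groucho family, which bind the C-terminus of Runx proteins, Tle1, Tle3 and Tle4 had windows. The listed Tle2, and Aes of the same family, had none in either list. Tle1 had the window closest to a start site, at rank 420 in both lists, 17 bp upstream with 1 match. Its other windows, of main ranks 313 and 816, lay 199 and 231 kb downstream of the start site. Tle3 had the best rank of a partner gene, 32 in the main list and 33 in the IgG-named list, 359 kb upstream and with Uaca as the nearest gene. Another Tle3 window, of main rank 625, was 213 kb upstream with 2 matches. A Tle3 window of IgG-named rank 686, at 274 kb downstream, had no match and no partner in the main list. Tle4 had a window 22.6 kb upstream at main rank 589 with 2 matches. Its other window, of main rank 681, had 3 matches but was 418 kb downstream, with Olfr1505, an olfactory receptor gene, as nearest gene.

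Among other co-factors, Crebbp, a histone acetyltransferase, had main rank 56 at 136 kb, and Cbfa2t2, a co-repressor of the ETO family, had main rank 799 at 25.9 kb upstream. The histone deacetylase genes Hdac3 and Hdac4 had main ranks 177 and 839, at 19.4 kb downstream without a match and 212 kb upstream with 2 matches. Of the transcription factors, Smad3, which transmits TGF-β signals and binds Runx proteins, had an intron window 31.3 kb from the start site at main rank 381 and IgG-named rank 404, with 2 matches. Its other window, of main rank 986, was 139 kb upstream with Smad6 as nearest gene, and had no match and no partner in the IgG-named list. Ets1, which binds DNA together with Runx1, had windows at main ranks 347 and 568, 91.3 and 93.4 kb from the start site with 2 and 3 matches. The remaining Ets1 entry, rank 493, was 2337 kb away with Kirrel3 as nearest gene. The listed genes of these kinds without a window in either list included Runx1t1, Cbfa2t3, Ep300, Hdac1, Smad1, Smad2, Smad4, Smad5, Fli1 and Erg, and are not all named here. None of the listed skeletal factors Sox5, Sox6, Sox9, Sp7, Dlx5, Msx2 and Twist1 had a window among the 1000 of either list. Only 7.98% of all protein-coding gene names were deposited in the main list, so absence was the usual outcome for a gene.

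**Figure D5:**
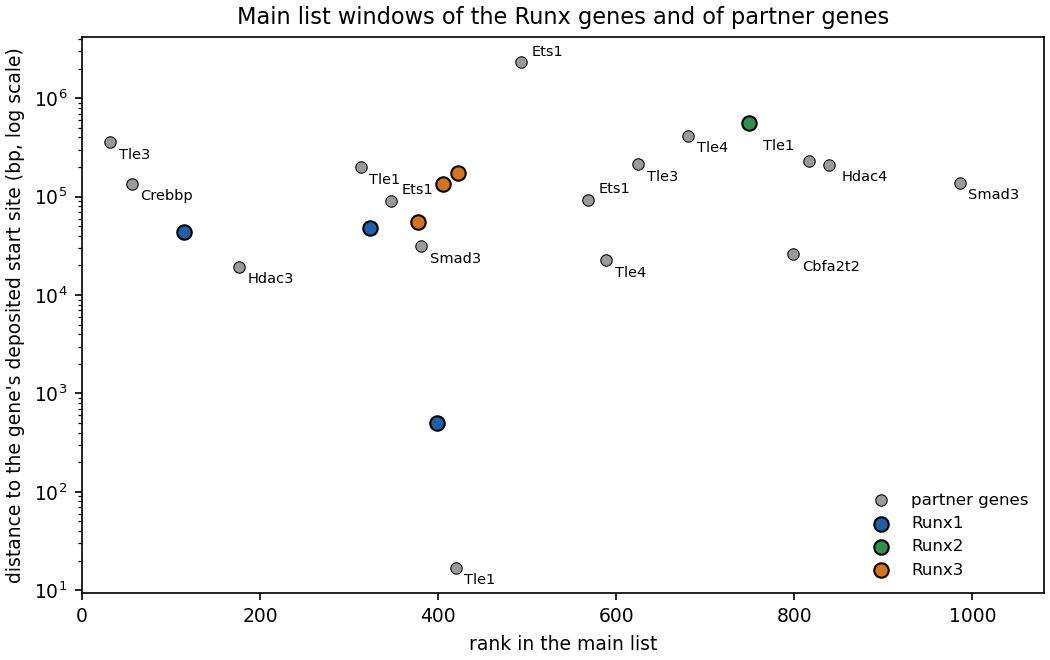
Rank in the main list against distance from the window centre to the gene's deposited start site in bp (log scale), for the Runx windows (coloured, nearest deposited start site) and windows of partner genes (grey, named). The Runx1 window of rank 399 (498 bp) and the Tle1 window of rank 420 (17 bp) are the 2 points within 1 kb.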

How the data were processed

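ChIP-seq was performed by the authors in SFZ chondrocytes. They used bowtie and the unmasked mm9 genome, then CisGenome for peak calling against input with a false discovery rate filter. The authors deposited 2 ranked lists of 1000 windows with positions, neighbouring RefSeq genes and distances in bp. For the IgG-named list, the control is not given in the sources used here. Positions were read as counted from 0 and are printed counted from 1, as windows of 101 bp. Windows were paired by closest centre with at least 1 bp in common. Promoters were the known protein-coding start sites of GENCODE vM1, joined within 5 kb. Motifs were sought on both strands of the NCBIM37 (mm9) genome, and 31-base words were counted over the whole genome. Named genes were the 3 Runx genes, their co-deposited neighbours, the listed partners with a window and some listed genes without one. Other genes named (Mrpl14, Srrm1, Uaca, Kirrel3, Olfr1505 and Smad6) were chosen after their values were seen. Members and lists were chosen with earlier results of these data known. Alternatives were top ranks, nearest genes, overlap rules, motif forms, wider windows, promoter definitions and the IgG-named list. The steps were tested on simulated data, and 7 of 7 passed. Tools were Python 3.11.15, numpy 2.4.6, numba 0.67.0, pysam 0.24.0, samtools 1.23.1 and matplotlib 3.10.9.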

Additional observations from a re-analysis of the deposited data

How the results depend on the processing

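Of 18 alternatives over 6 results, 12 concerned counts that stayed within 1.5 times the main count, among them every alternative for shared windows and for the Runx motif. Of the other 6, 4 moved a count by more and 2 concerned a distance, which moved by less than 1.5 times. The number of Runx windows in the main list, 7, was 2 among the first 333 ranks and 4 where the Runx gene had to be the deposited nearest gene. The median distance to the nearest promoter, 47916 bp, was 47866 bp from the nearest window edge and 54833 bp from the start sites of the deposited transcripts. The number of windows in coding exons was 1 in the main list and 2 in the IgG-named list, an alternative added after the data were seen. The number of partner genes, 9, was 5 with a start site within 50 kb. No paired analysis was possible because there was 1 library per group. Without read counts or peak heights, how strong each window was and how many reads lay behind it cannot be stated.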
